A study of Homo sapiens with 18 samples.

Results

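Cells with a TRIM27 knockout were compared with wild-type cells after both had received an siRNA against PARP1 (siPARP1), in MDA-MB-231, a human cell line established from a triple-negative breast cancer. The genes were all those with at least 1 FPKM (fragments per kilobase of transcript, scaled to the library's total) in at least 3 of the 6 siPARP1 libraries, which left 14609 of the 62830 genes listed. Of these, 11173 were protein coding and 960 were unnamed loci assembled by the submitters. The genes closest to the limit were SEMA7A inside it, whose value in the third highest library was 1.000647 FPKM, and ADAM23 outside it, with 0.999288 FPKM.

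The 6 libraries, 3 of each genotype, belong to a set of 18 in which both genotypes were also sequenced without treatment and after olaparib, a PARP inhibitor (2 µM, 24 h). The siRNA, whose amount is labelled as 100 pM, was given for 48 h with a lipid reagent. All libraries carry the same batch label. The labels do not say whether the knockout cells are 1 clone or a pool, and no library is labelled as having received a non-targeting siRNA, so what transfection alone does to either genotype cannot be told apart from the loss of PARP1 RNA. Whether the libraries of one group are separate cultures is not stated in the labels. The p-values therefore reflect only how far these libraries differ from one another, which may be technical spread. DNA copy number was not measured here.

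TRIM27, a tripartite motif protein, is a ubiquitin ligase that works with the WASH and retromer complexes in the sorting of endosomal proteins and has been linked to the control of NF-kB and interferon signalling. PARP1 builds chains of poly(ADP-ribose) on proteins at DNA breaks and is also known as a coactivator of NF-kB target genes. An siRNA removes the enzyme's RNA, and with it the protein over time, whereas olaparib blocks its active site and holds it on DNA. The comparison therefore asks what the loss of TRIM27 changes in cells that have little PARP1 RNA.

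Across genes, libraries of the same genotype correlated at 0.9813 to 0.9855 on the log2(FPKM + 1) scale, and libraries of different genotype at 0.9696 to 0.9739. Each library had 14376 to 14541 genes at 1 FPKM or more, and relative depth, estimated from the steps between low values, ran from 1.0 to 1.146 times that of wild-type library 1. Absolute depth is unknown. Transcripts of the mitochondrial genome made up 25.48 to 26.15% of the FPKM of named genes in wild-type and 27.27 to 28.19% in knockout libraries, without overlap, and the unnamed loci took 44.03 to 47.19% and 43.41 to 44.61% of the total. The labels call the cells epithelial. VIM averaged 2220.2 FPKM across wild-type and 1899.8 FPKM across knockout libraries, while the epithelial adhesion gene CDH1 stood at 0.0508 and 0.0458 FPKM, EPCAM at 0.185 and 0.212 FPKM and the oestrogen receptor gene ESR1 at 0.256 and 0.228 FPKM. GATA3, a luminal factor, stood at 14.4 and 15.5 FPKM, and the luminal keratins KRT8 at 454.0 and 292.7 FPKM and KRT18 at 542.7 and 497.8 FPKM, so luminal markers were not uniformly low.

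The knocked-out gene was checked first. TRIM27 (ENSG00000204713, GRCh38 chromosome 6, 28903002 to 28923989) measured 1.78, 1.62 and 2.44 FPKM in the wild-type siPARP1 libraries and 0.946, 0.982 and 1.04 FPKM in the knockout libraries. All 3 knockout libraries lay below all 3 wild-type libraries, at 50.9% of the wild-type mean, with a log2 change of -0.56 (SE 0.096, limma adjusted p = 0.000708). The level depended on the added constant, since the log2 change was -0.89 with a pseudocount of 0.1. Protein levels cannot be read from these RNA values. PARP1 (ENSG00000143799, chromosome 1, 226360691 to 226408079) measured 9.94, 10.6 and 11.7 FPKM in wild-type and 8.71, 9.58 and 9.46 FPKM in knockout libraries, against means of 56.2 and 55.2 FPKM without treatment. Relative to wild type, PARP1 RNA in the knockout stood at 86.2%, and this difference missed the threshold (log2 -0.19, SE 0.068, limma adjusted p = 0.055). It passed as lower with a pseudocount of 0.1 (limma adjusted p = 0.0467), with genes required to reach 5 FPKM (0.0489), with 10 Mb bin medians removed (log2 -0.25, 0.0244) and without wild-type library 1 (0.0335), whereas the sum of its listed transcripts gave a log2 change of 0.00 (limma adjusted p = 0.998). PAX6, a developmental transcription factor named in the study's design, lay under the filter at 0.296, 0.609 and 0.373 FPKM in wild-type and 0.428, 0.385 and 0.698 FPKM in knockout libraries, and the groups overlapped (log2 0.08, SE 0.119, limma adjusted p = 0.873 in a fit with no filter, where 8.29% of 41488 genes passed). Of 10 paired-box factors and PAX6-linked genes 2 passed the filter, and SIX3 was higher in the knockout, at 3.72, 4.2 and 3.66 FPKM against 4.7, 4.52 and 4.15 FPKM with overlap (log2 0.17, SE 0.056, limma adjusted p = 0.0408).

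Knockout and wild-type cells with PARP1 depleted differed at many genes, most of them by small amounts. At a limma adjusted p under 0.05, 3545 genes were called (24.3% of those tested), 1811 higher (12.4%) and 1734 lower (11.9%) in the knockout, with a median change over all genes of -0.004. Among the calls 2637 (74.4%) had an absolute log2 change under 0.5, and the median absolute change was 0.36. Changes of at least 2-fold were counted for 49 genes that rose and 123 that fell. Most other settings gave fewer calls. The number was lowest in 2 of them: a fit of only the 6 libraries compared called 2210, and removing the median change of each 10 Mb chromosome bin left 2359. When values were rescaled to a fixed sum over named genes of the nuclear genome, 60% of the calls were higher, against 51.1% as deposited. Libraries of the genotypes did not overlap in 5627 of the 14609 genes (38.5%), so lack of overlap alone does not set a gene apart. The strongest rises and falls named below were picked only among genes without overlap. Below, lists of genes with a shared role are described by how many members passed the limma test, beside the shares of all genes called. Counts of 1 or 2 members often moved by 1 when a library was left out.

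The strongest falls were losses of RNA that wild-type cells made in quantity. UCHL1, a deubiquitinating enzyme abundant in neurons (ENSG00000154277, chromosome 4, 41256413 to 41268455), measured 74.4, 53.5 and 67.3 FPKM in wild-type libraries and was listed at 0 in all 3 knockout libraries (limma adjusted p = 6.31e-15). SERPINB2, which inhibits the plasminogen activators (ENSG00000197632, chromosome 18, 63871692 to 63903890), measured 187.5, 109.2 and 186.8 FPKM against 1.14, 1.85 and 1.48 FPKM, a 108.2-fold lower mean (log2 -5.99, SE 0.185, limma adjusted p = 2.26e-11). The long non-coding RNA LNCAROD (chromosome 10, 52450874 to 52755409) went from 49.1, 50.1 and 50.5 FPKM to 0.639, 0.315 and 0.51 FPKM (log2 -5.10, limma adjusted p = 4.44e-14). In each of these 3 genes the highest knockout library lay far under the lowest wild-type library.

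TIMP3, which binds the extracellular matrix and inhibits metalloproteinases (ENSG00000100234, chromosome 22, 32801701 to 32863043), had the least spread of the large changes. It measured 59.4, 58.9 and 59.4 FPKM in wild-type and 6.39, 6.33 and 6.17 FPKM in knockout libraries, 9.41-fold lower (log2 -3.05, SE 0.04, limma adjusted p = 1.4e-15). LAMA4, a laminin chain of basement membranes, fell from 10.2, 7.65 and 7.73 FPKM to 0.144, 0.347 and 0.582 FPKM (log2 -2.81). APOE, a lipid carrier, fell from 9.59, 10.3 and 9.9 FPKM to 0.778, 0.9 and 0.625 FPKM (log2 -2.63), and GLUL, glutamine synthetase, from 8.48, 10 and 7.63 FPKM to 0.491, 1.19 and 0.904 FPKM (log2 -2.39). For these 3 genes the limma adjusted p-values were 2.89e-09, 1.76e-09 and 3.92e-08. With a pseudocount of 0.1 the log2 change of LAMA4 was -4.35. EMP1, a membrane protein of epithelia, fell unevenly, with 118.3, 116.0 and 119.9 FPKM in wild-type libraries and 58.1, 18.5 and 16.3 FPKM in knockout libraries (log2 -2.13, SE 0.423, limma adjusted p = 0.00202). Knockout library 1 held far more EMP1 RNA than the other two, yet lay below every wild-type library.

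AADAC, an esterase of the endoplasmic reticulum, measured 9.08, 9.62 and 8.6 FPKM in wild-type libraries and 0.356, 0.191 and 0.277 FPKM in knockout libraries (log2 -2.99, SE 0.091, limma adjusted p = 2e-11, and log2 -4.64 with a pseudocount of 0.1). Its pseudogene AADACP1 went the same way (log2 -2.33), and reads of the pair may have been split between them. C15orf48, which encodes a small mitochondrial protein induced by inflammatory signals, fell from 15.9, 14.9 and 15.4 FPKM to 1.84, 2.01 and 1.92 FPKM (log2 -2.49, limma adjusted p = 4.27e-10). These 3 genes had means of 0.556, 0.681 and 2.5 FPKM in untreated wild-type cells.

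In all, 7 genes were listed at 0 in every knockout siPARP1 library and none in every wild-type one. Besides UCHL1 and an unnamed locus they were BCAT1, CLEC2B, KISS1, SNORD116-4 and SNRPN, which were chosen for this value. SNRPN lies in an imprinted region of chromosome 15 that is known to be expressed from the paternal copy. It measured 10.4, 10.8 and 8.66 FPKM in wild-type libraries. SNHG14, the long host transcript downstream (24978583 to 25419462), measured 7.06, 7.32 and 5.59 FPKM in wild-type and 0.0345, 0.055 and 0.0274 FPKM in knockout libraries (limma adjusted p = 1.91e-11), and its log2 change moved from -2.87 to -5.60 with a pseudocount of 0.1. UBE3A, at the far end of the same region, averaged 23.4 FPKM in both genotypes. These transcripts overlap one another, and without a stated strand setting their reads cannot be told apart.

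**Figure D1:**
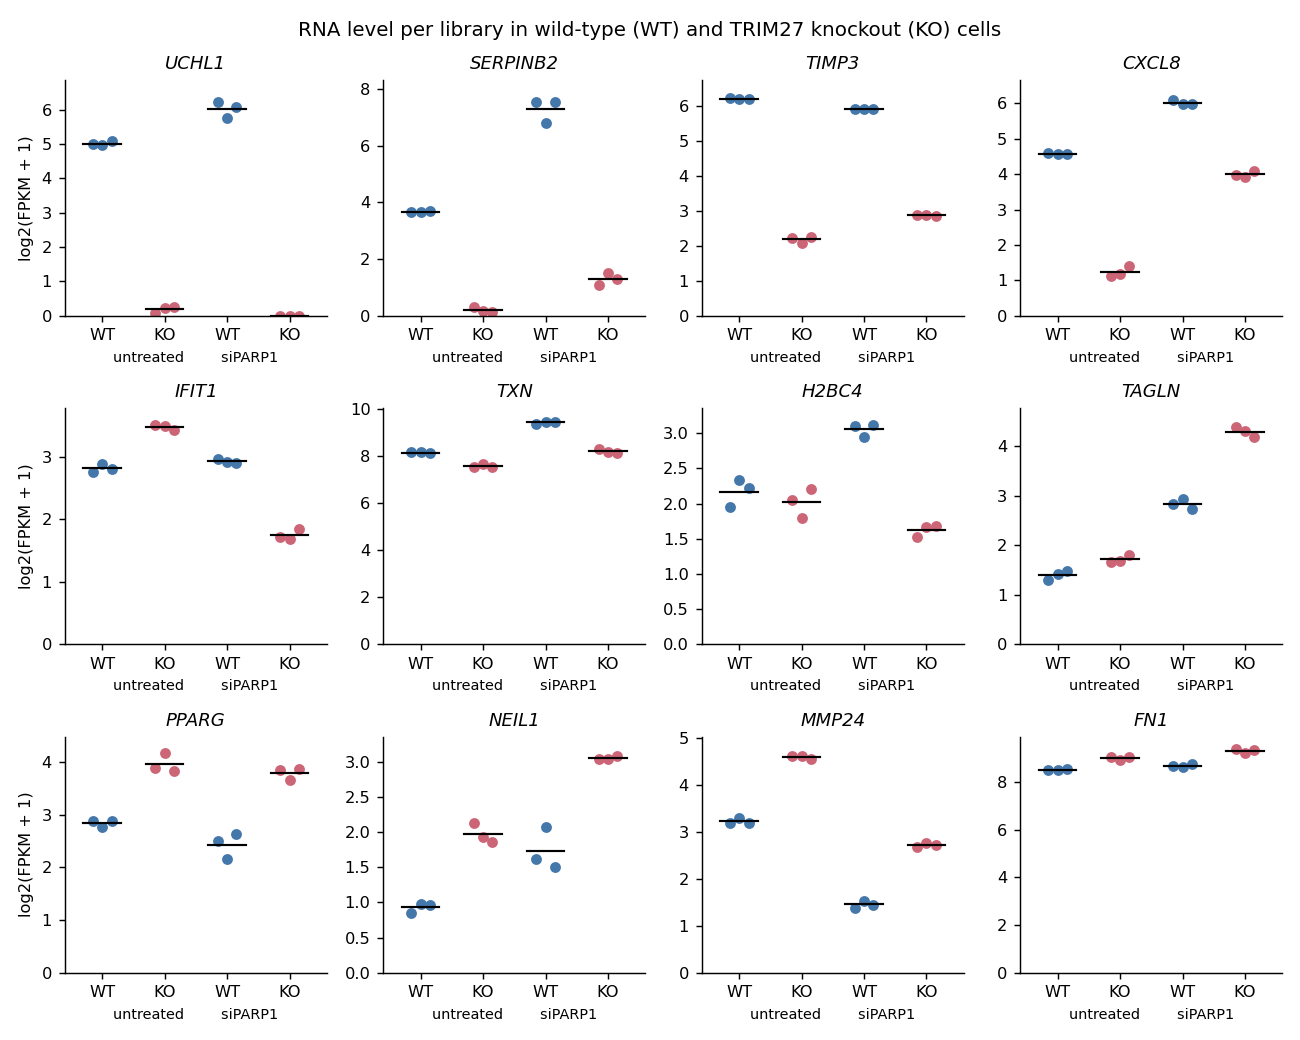
Each panel shows 1 gene, with log2(FPKM + 1) per library on the vertical axis, wild type in blue and knockout in red, without treatment and under siPARP1, and a bar at each group's mean. UCHL1 and SERPINB2 are separated widely in both conditions, TAGLN only narrowly without treatment, and IFIT1 lies higher in the knockout without treatment and lower in it under siPARP1.

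The largest rises were smaller than the largest falls and came from genes of several functions. TAGLN, an actin-binding protein of smooth muscle and mesenchymal cells (ENSG00000149591, chromosome 11, 117199321 to 117204782), measured 6.11, 6.62 and 5.67 FPKM in wild-type and 19.9, 18.9 and 17.1 FPKM in knockout libraries, 3.03-fold higher (log2 1.46, SE 0.107, limma adjusted p = 2.61e-07). PPARG, the nuclear receptor that drives fat cell differentiation (chromosome 3, 12287368 to 12434356), measured 4.69, 3.45 and 5.23 FPKM against 13.4, 11.7 and 13.6 FPKM (log2 1.36, SE 0.193, limma adjusted p = 0.000144, and 0.90 with the median change of its 10 Mb bin removed). NEIL1, a glycosylase that starts base excision repair (chromosome 15, 75346955 to 75357114), measured 2.06, 3.2 and 1.84 FPKM against 7.25, 7.19 and 7.48 FPKM (log2 1.33, SE 0.206, limma adjusted p = 0.000308). Each of these rises left a gap between the genotypes that was wider than the range within either one.

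MMP24, a membrane-bound metalloproteinase, rose from 1.62, 1.87 and 1.74 FPKM to 5.37, 5.79 and 5.61 FPKM (log2 1.26, SE 0.049, limma adjusted p = 2.73e-10). IGFBP4, which binds insulin-like growth factors, rose from 33.3, 32.6 and 36.4 FPKM to 76.7, 74.2 and 83.5 FPKM (log2 1.17, SE 0.05, limma adjusted p = 7.88e-10). RGS4 and RGS5, neighbouring genes on chromosome 1 whose products shut off G protein signals, both rose. RGS4 was uneven, with 15.4, 17 and 31.9 FPKM in wild-type and 73.3, 42.9 and 71.2 FPKM in knockout libraries (log2 1.53, SE 0.271, limma adjusted p = 0.000867), and RGS5 went from 2.51, 2.3 and 2.17 FPKM to 6.82, 5.99 and 6.8 FPKM (log2 1.18, limma adjusted p = 1.13e-05). PRDX2, a peroxidase, rose by a log2 of 1.24, and QPRT, an enzyme of NAD synthesis from tryptophan, by 1.17. The other large rises were NDFIP2, an adaptor of NEDD4-type ubiquitin ligases, at 1.27 (2.86 for the sum of its listed transcripts), LBH at 1.24, EPB41L4B at 1.17, and NTN4, a netrin of basement membranes, at 1.14.

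The microRNA precursor gene MIR137 measured 0.108, 2.94 and 0.127 FPKM in wild-type and 5.72, 7.23 and 6.61 FPKM in knockout siPARP1 libraries (log2 2.14, SE 0.333, limma adjusted p = 0.000308). Wild-type library 2 stood apart from the other two, though below all knockout libraries. The gene lies within a longer host transcript, and libraries of RNA enriched with oligo(dT) beads and counted per gene do not measure the mature microRNA. Its log2 change was 3.65 with a pseudocount of 0.1.

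NF-kB is a family of transcription factors held in the cytoplasm by inhibitor proteins and released by inflammatory signals, and its targets include chemokines, cytokines, adhesion molecules and its own inhibitors. Of 24 members tested, 14 fell and 2 rose in knockout cells under siPARP1, with a median log2 change of -0.50. All 6 chemokines tested fell, as did 3 of 5 cytokines, 2 of 3 adhesion and survival genes and 3 of 10 subunits and feedback genes. CXCL8, which attracts neutrophils, measured 67.8, 61.8 and 62.9 FPKM in wild-type and 14.7, 14.3 and 15.9 FPKM in knockout libraries, 4.28-fold lower (log2 -2.03, SE 0.07, limma adjusted p = 7.54e-11). CXCL1 measured 49.3, 50.4 and 49.8 FPKM against 23.7, 23 and 23 FPKM (log2 -1.07, SE 0.042, limma adjusted p = 3.12e-10), and CXCL2 20.5, 21 and 21.6 FPKM against 13.1, 13.1 and 11.1 FPKM (log2 -0.72, SE 0.076, limma adjusted p = 1.04e-05). For each of the 3 chemokines all knockout libraries lay below all wild-type libraries, where 38.5% of all genes had no overlap in either direction.

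The interleukin 1 genes were lowered about as much as CXCL8. IL1A measured 23.7, 22 and 21.9 FPKM in wild-type and 5.23, 5.58 and 5.54 FPKM in knockout libraries (log2 -1.87, limma adjusted p = 1.43e-11), and IL1B 12.2, 13.7 and 13.7 FPKM against 2.83, 3.22 and 3.29 FPKM (log2 -1.79, limma adjusted p = 7.44e-10). ICAM1, a receptor for leukocyte integrins, fell from 16.2, 18.2 and 17.8 FPKM to 5.64, 5.98 and 5.88 FPKM (log2 -1.43, limma adjusted p = 3.76e-09). BIRC3, an inhibitor of apoptosis, fell from 24.4, 23.3 and 25 FPKM to 15.5, 13.9 and 13.5 FPKM (log2 -0.73, limma adjusted p = 3.61e-05). Among the inhibitors and subunits, named after their values were seen, TNFAIP3, a deubiquitinase that ends NF-kB signalling, rose from a mean of 8.89 to 14.2 FPKM (log2 0.62, limma adjusted p = 0.00285), though the sum of its listed transcripts did not pass (log2 0.27, limma adjusted p = 0.464). NFKBIA and RELA averaged 6.24 and 22.8 FPKM in wild-type and 5.34 and 22.5 FPKM in knockout libraries (limma adjusted p = 0.128 and 0.969). The other member that rose was CSF1, a macrophage growth factor, from 2.68 to 3.48 FPKM (limma adjusted p = 0.0437). CSF1 did not pass when any siPARP1 library but wild-type library 2 was left out (limma adjusted p = 0.0684 to 0.191).

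The promoters of these chemokines show where matches to 1 short form of an NF-kB site lie. The 250 bases before the RefSeq start (GRCh38.p14) are given 5′ to 3′ on the gene's strand, with matches to the kB core GGAANTTCC, searched on both strands, in capitals: CXCL8 at chr4:73740319-73740568 on the plus strand, CXCL1 at chr4:73869143-73869392 on the plus strand, and CXCL2 at chr4:74099196-74099445 on the minus strand.
CXCL8: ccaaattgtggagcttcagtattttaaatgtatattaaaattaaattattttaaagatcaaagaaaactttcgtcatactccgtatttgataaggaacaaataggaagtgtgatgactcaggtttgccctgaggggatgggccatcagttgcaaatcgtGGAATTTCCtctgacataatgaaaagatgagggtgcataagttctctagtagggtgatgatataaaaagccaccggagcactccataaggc
CXCL1: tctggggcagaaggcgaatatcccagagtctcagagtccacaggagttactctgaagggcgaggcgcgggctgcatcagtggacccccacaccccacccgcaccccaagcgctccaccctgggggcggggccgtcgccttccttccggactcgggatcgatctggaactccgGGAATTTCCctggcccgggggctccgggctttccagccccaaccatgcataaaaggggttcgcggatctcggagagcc
CXCL2: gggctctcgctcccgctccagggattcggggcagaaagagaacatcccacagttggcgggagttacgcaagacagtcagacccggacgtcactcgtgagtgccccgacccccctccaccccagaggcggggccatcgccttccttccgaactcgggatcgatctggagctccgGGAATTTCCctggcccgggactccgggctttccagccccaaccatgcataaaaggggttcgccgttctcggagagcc
The match begins 91 bases before the start in CXCL8, 78 in CXCL1 and 77 in CXCL2. In the 250 bases before the start, the core was found in 7 of the 12 list members that fell and have a promoter entry, in 3 of the 6 that passed in neither direction and in the promoter of 0 of the 1 that rose, against 227 of 27305 RefSeq promoters (0.831%). The list was made of NF-kB subunits and known targets, so its share beside all promoters does not bear on the knockout. Members that fell and the others were not tested against each other. A match is a run of letters and does not show binding.

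Interferon-stimulated genes encode antiviral effectors and the sensors and transcription factors that switch them on. Of 29 tested, 17 fell and 0 rose in the knockout under siPARP1 by the limma test, with a median of -0.42. At an unadjusted p under 0.05, 20 were lower and 0 higher. The falls took in 12 of 17 effectors and 5 of 9 sensors and transcription factors. IFIT1, which binds viral RNA that lacks host cap marks (ENSG00000185745, chromosome 10, 89392546 to 89406486), measured 6.81, 6.59 and 6.5 FPKM in wild-type and 2.29, 2.21 and 2.59 FPKM in knockout libraries (log2 -1.18, SE 0.051, limma adjusted p = 7.88e-10). IFIT3 measured 9.96, 10.4 and 10.4 FPKM against 3.83, 4.03 and 3.85 FPKM (log2 -1.20, SE 0.052, limma adjusted p = 8.56e-10). IFI44 measured 5.69, 5.96 and 4.78 FPKM against 0.408, 1.04 and 0.592 FPKM, 8.04-fold lower (log2 -1.96, SE 0.112, limma adjusted p = 1.69e-08). The libraries of the genotypes were apart in all 3 genes.

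IFI6, an interferon-induced mitochondrial protein, fell from 14.8, 14.6 and 14.7 FPKM to 6.47, 6.47 and 4.3 FPKM (log2 -1.24, limma adjusted p = 5.25e-05). IFIH1, the sensor of long double-stranded RNA also called MDA5, fell from 8.33, 9.67 and 11 FPKM to 5.77, 6.74 and 5.54 FPKM (log2 -0.60, limma adjusted p = 0.000108). Members at other levels, named after their values were seen, were STAT2, with 11.2 and 12.8 FPKM (limma adjusted p = 0.162), and B2M, the light chain of class I antigen presentation, with 247.3 and 246.6 FPKM (limma adjusted p = 0.987). STAT2 passed as higher with bin medians removed (log2 0.31, limma adjusted p = 0.0234). With genes required to reach 5 FPKM, 10 members fell.

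Promoters of 3 interferon-stimulated genes that fell are given in the same way, with the interferon response core, 2 copies of GAAA separated by 2 bases of any kind, or its reverse complement, in capitals: IFIT1 at chr10:89392373-89392622, IFIT3 at chr10:89327747-89327996 and IFI44 at chr1:78649539-78649788, all on the plus strand.
IFIT1: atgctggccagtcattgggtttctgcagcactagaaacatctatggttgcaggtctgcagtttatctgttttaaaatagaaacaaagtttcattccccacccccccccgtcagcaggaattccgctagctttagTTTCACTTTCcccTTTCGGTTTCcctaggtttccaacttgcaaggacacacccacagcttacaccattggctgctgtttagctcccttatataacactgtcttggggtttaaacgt
IFIT3: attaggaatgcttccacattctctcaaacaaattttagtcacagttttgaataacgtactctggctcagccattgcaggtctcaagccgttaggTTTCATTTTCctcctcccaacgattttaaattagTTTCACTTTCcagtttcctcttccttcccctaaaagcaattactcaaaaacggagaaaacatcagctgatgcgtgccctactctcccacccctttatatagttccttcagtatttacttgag
IFI44: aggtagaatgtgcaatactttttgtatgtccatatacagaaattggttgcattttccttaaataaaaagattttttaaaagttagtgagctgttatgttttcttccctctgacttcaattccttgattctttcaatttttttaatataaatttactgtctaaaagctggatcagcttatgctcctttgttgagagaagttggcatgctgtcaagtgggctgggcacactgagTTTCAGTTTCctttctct
IFIT1 and IFIT3 hold 2 matches each, at 116 and 103 bases and at 156 and 122 bases before the start, and IFI44 holds 1, at 18 bases. In the same window of 250 bases before the start, the core was found in 9 of the 13 members that fell and have a promoter entry, in 4 of the 8 others, and in 839 of 27305 promoters (3.07%). This list too was made of genes known to respond to interferon, so its share beside all promoters does not bear on the knockout. Members that fell and the others were not tested against each other.

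The interferon-stimulated genes moved differently in untreated cells. Without treatment 6 of the 29 members were lower and 4 higher in the knockout, where 20.9% of all genes were called (9.47% higher and 11.4% lower), and their median was -0.01. The difference between the knockout effect under siPARP1 and that without treatment, tested as an interaction in the same fit, passed for 823 genes (5.63%), 442 in the positive direction (3.03%) and 381 in the negative (2.61%). It was negative for 8 of the 29 and positive for 0, and at an unadjusted p under 0.05 for 16 and 0. For IFIT1, untreated wild-type libraries held 5.79, 6.39 and 6.02 FPKM and untreated knockout libraries 10.4, 10.3 and 9.75 FPKM, so the knockout was higher without treatment (log2 0.66, limma adjusted p = 4.43e-07) and lower under siPARP1. The interaction was -1.84 (SE 0.072, limma adjusted p = 5.18e-09). For IFIT3, where untreated means were 13.1 and 14.1 FPKM, the interaction was -1.31 (limma adjusted p = 1.31e-07), and for IFI6, with 9.34 and 8.6 FPKM, it was -1.13 (limma adjusted p = 0.00746).

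For the NF-kB list 16 members were lower and 1 higher without treatment, with a median of -0.49, but the chemokines given below were lowered further there on the log2 scale. CXCL8 measured 23.1, 22.9 and 23 FPKM in untreated wild-type and 1.17, 1.25 and 1.64 FPKM in untreated knockout libraries, and its interaction was 1.33 (SE 0.099, limma adjusted p = 2.13e-06). CXCL1 measured 44.6, 43.6 and 41.8 FPKM against 6.86, 6.66 and 6.99 FPKM, with an interaction of 1.43 (SE 0.059, limma adjusted p = 5.18e-09). For CXCL2, at 14.4, 15.4 and 13.7 FPKM against 3.33, 2.61 and 3.24 FPKM, it was 1.22 (SE 0.108, limma adjusted p = 1.06e-05). The knockout deficit in these 3 chemokines was thus smaller under siPARP1, while for IL1A, IL1B and ICAM1 the interaction did not pass (limma adjusted p = 0.372, 0.801 and 0.172).

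**Figure D2:**
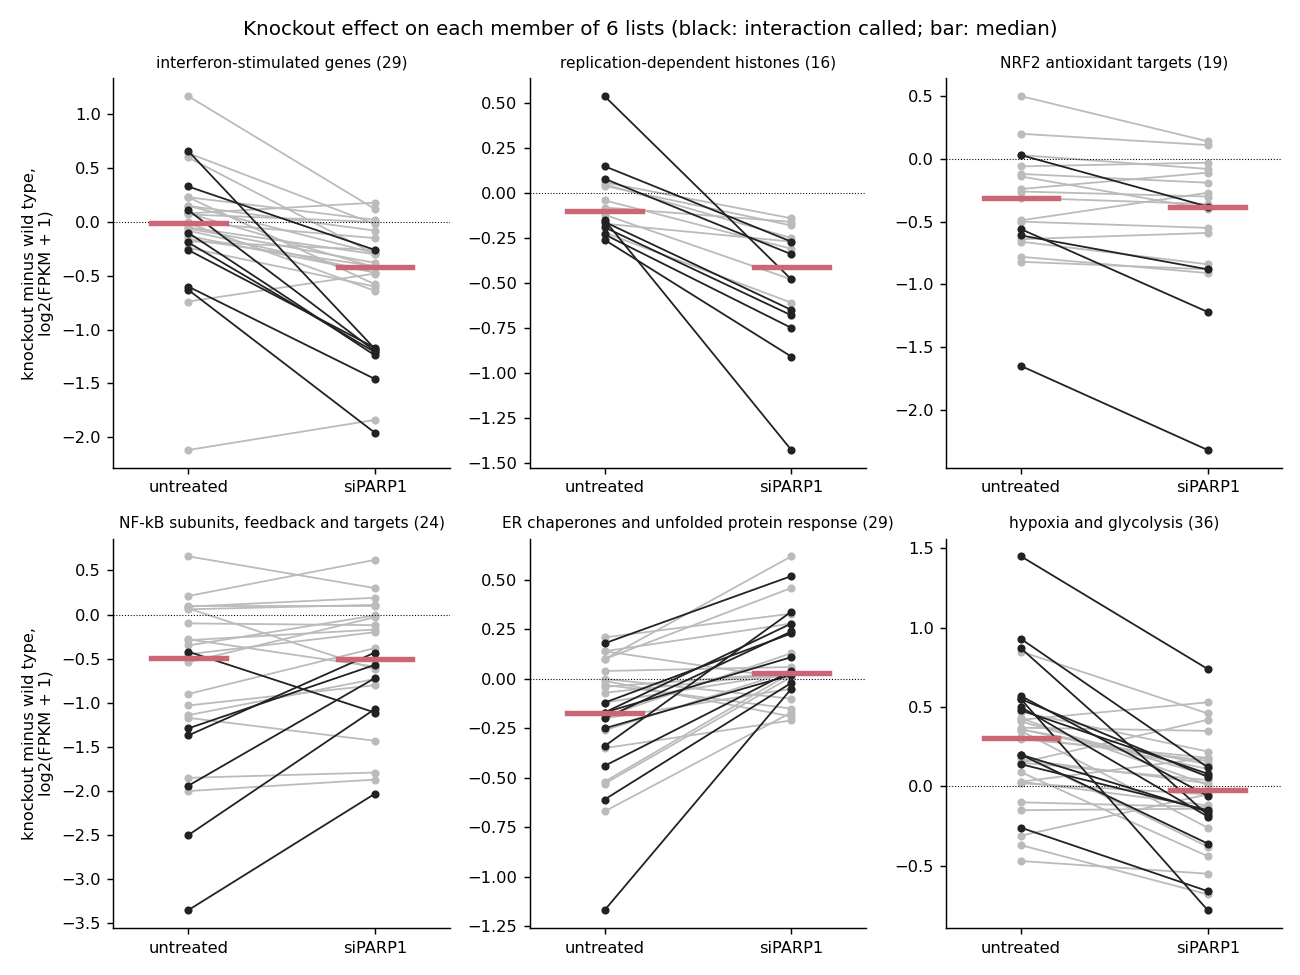
For 6 gene lists, each grey line joins a member's knockout minus wild-type difference in log2(FPKM + 1) without treatment to that under siPARP1, black lines mark members whose interaction passed at a limma adjusted p under 0.05, and a red bar marks the median. The median of the interferon-stimulated genes goes from -0.01 to -0.42 and that of the replication-dependent histones from -0.10 to -0.41, while that of the hypoxia list goes from 0.31 to -0.02.

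Replication-dependent histone genes, which package new DNA in S phase, were lower in the knockout under siPARP1. Only 16 of the 55 in the list passed the filter. Of these 10 fell and 0 rose by the limma test, with a median of -0.41, and at an unadjusted p under 0.05 there were 12 lower and 0 higher. H2BC4 measured 7.59, 6.67 and 7.67 FPKM in wild-type and 1.88, 2.17 and 2.2 FPKM in knockout libraries (log2 -1.43, SE 0.106, limma adjusted p = 2.83e-07). H2BC8 measured 6.83, 7.88 and 7.33 FPKM against 3.51, 4.48 and 2.56 FPKM (log2 -0.91, limma adjusted p = 3.53e-05), and H2BC21 5.14, 5.68 and 5.7 FPKM against 2.72, 3.01 and 2.86 FPKM (log2 -0.75, limma adjusted p = 5.57e-06). In these 3 genes every knockout library was lower.

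Without treatment 1 histone gene was higher and 1 lower, and the interaction was negative for 8 and positive for 0 by the limma test (11 and 0 at an unadjusted p under 0.05). For H2BC4 untreated libraries held 2.87, 4.03 and 3.67 FPKM in wild-type and 3.14, 2.48 and 3.62 FPKM in knockout cells, and the interaction was -1.28 (SE 0.15, limma adjusted p = 0.000135). Most of these transcripts carry no poly(A) tail, so libraries of RNA enriched with oligo(dT) beads record only a part of them, and near-identical copies such as H2AC18 and H2AC19 share reads. H2AC18 fell from 13.9, 17.6 and 16.4 FPKM to 9.16, 10.5 and 8.97 FPKM (log2 -0.68, limma adjusted p = 5.13e-05), and H2AC19 followed with -0.65.

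Genes of DNA replication and G1/S, which make nucleotides and load and fire origins, were lower for 10 of 40 members and higher for 1. The share called was 27.5%, beside 24.3% of all genes, and the median was -0.10. TYMS, which makes thymidylate, measured 34, 34.1 and 34.7 FPKM in wild-type and 22.9, 21.3 and 22.3 FPKM in knockout libraries (log2 -0.61, SE 0.04, limma adjusted p = 7.93e-08). PCNA, the sliding clamp, measured 104.2, 105.9 and 106.9 FPKM against 79.1, 79.6 and 78.1 FPKM (log2 -0.42, limma adjusted p = 5.52e-06), and MCM2, a subunit of the replicative helicase, 14.8, 16.3 and 15 FPKM against 11.6, 11.5 and 12.9 FPKM (log2 -0.33, limma adjusted p = 0.00176). The 3 genes had no overlap between genotypes. PCNA lies near the start of chromosome 20, and its change was -0.18 (limma adjusted p = 0.009) with the median of its bin removed. In a fit of only the 6 libraries 5 members were lower, and with bin medians removed 6. Without treatment 12 were lower and 1 higher.

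Genes of G2/M and mitosis were lower for 9 of 39 members and higher for 2 (28.2%, beside 24.3% of all genes), with a median of -0.05. In a fit of only the 6 libraries 5 were lower. KIF20A, a mitotic kinesin, measured 16.3, 16.6 and 16.3 FPKM in wild-type and 13.2, 11.9 and 13 FPKM in knockout libraries (log2 -0.35, SE 0.045, limma adjusted p = 6.12e-05, and -0.15 with its bin's median removed). KIF2C, which depolymerises microtubules, measured 22.8, 22.3 and 22.2 FPKM against 17.8, 17.4 and 17.2 FPKM (log2 -0.34, limma adjusted p = 9.63e-05). CCNB1, the mitotic cyclin, measured 77.3, 77.8 and 78.2 FPKM against 66, 61 and 59.4 FPKM (log2 -0.32, limma adjusted p = 3.23e-05), but it stood at -0.07 (limma adjusted p = 0.239) once the median of its 10 Mb bin was removed. Among G1 cyclins and their inhibitors 3 of 13 rose and 0 fell by the limma test, with 1 lower at an unadjusted p under 0.05 and 1 lower by the adjusted p without wild-type library 2. The share called was 23.1%, beside 24.3% of all genes. CDKN2C, an inhibitor of CDK4 and CDK6, rose from 9.52, 9.04 and 8.55 FPKM to 12.2, 11 and 12.1 FPKM (log2 0.35, limma adjusted p = 0.000336). In bulk RNA, a smaller share of cells in a cycle phase and less RNA per cell cannot be told apart.

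In the list of single-strand break and base excision repair, the pathway in which PARP1 works, NEIL1 was the member that rose among 21 tested, and 0 fell by the limma test, with a median of 0.07. At an unadjusted p under 0.05 there were 4 higher and 4 lower, and 2 were lower by the adjusted p without wild-type library 3. In the list of homologous recombination and the Fanconi pathway, 1 of 31 rose and 1 fell, a median of 0.00. The member that rose was FANCD2, from 4.13, 4.51 and 3.94 FPKM to 7.31, 6.21 and 6.05 FPKM (log2 0.53, SE 0.076, limma adjusted p = 0.000153). FANCD2 lies on the short arm of chromosome 3, and its change was 0.07 (limma adjusted p = 0.612) with the median of its bin removed. The member that fell was RAD51C, at means of 12.4 and 9.74 FPKM (limma adjusted p = 0.0411), which did not pass without knockout library 3 or wild-type library 1 or 3. The shares called in the 2 lists were 4.76% and 6.45%, beside 24.3% of all genes.

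Of 25 enzymes and hydrolases of ADP-ribosylation and NAD supply tested, 6 fell and 3 rose, with a median of -0.13. PARP12, an interferon-inducible mono-ADP-ribosyltransferase, fell from 11.7, 13.5 and 12.4 FPKM to 9.96, 9.28 and 9.76 FPKM (log2 -0.34, SE 0.071, limma adjusted p = 0.00303). NMNAT2, which makes NAD in the cytosol, fell from 12.1, 13.5 and 13.3 FPKM to 8.78, 10.6 and 6.83 FPKM (log2 -0.53, limma adjusted p = 0.0103, and 0.0626 in a fit of only the 6 libraries). That fit called 1 lower and 1 higher in the whole list. Without wild-type library 2 there were 3 lower, and without wild-type library 3 there was 1 higher. PARP2, the closest relative of PARP1, named after its values were seen, averaged 18.4 and 16.8 FPKM (limma adjusted p = 0.2).

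Targets of NRF2, the factor that induces antioxidant, glutathione and iron storage genes, were lower in the knockout. Of 19 tested 13 fell and 0 rose by the limma test, as also at an unadjusted p under 0.05, with a median of -0.38, which was -0.53 with bin medians removed. TXN, thioredoxin (ENSG00000136810, chromosome 9, 110243811 to 110256640), measured 657.7, 692.7 and 697.5 FPKM in wild-type and 311.1, 285.3 and 280.1 FPKM in knockout libraries, 2.34-fold lower (log2 -1.22, SE 0.06, limma adjusted p = 3.43e-09). FTL, the light chain of ferritin, measured 2884.2, 3114.8 and 3121.7 FPKM against 1635.5, 1602.2 and 1612.8 FPKM (log2 -0.91, SE 0.042, limma adjusted p = 1.76e-09). SRXN1, which repairs oxidised peroxiredoxins, measured 59.5, 58.8 and 58.7 FPKM against 31.2, 31.7 and 32.2 FPKM (log2 -0.88, SE 0.038, limma adjusted p = 7.88e-10). In all 3 genes the gap between the genotypes was wider than the range within either.

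OSGIN1 fell from 11.3, 13.4 and 13.6 FPKM to 6.5, 6.54 and 6.32 FPKM (log2 -0.88, limma adjusted p = 9.81e-06), and GCLC, the rate-limiting enzyme of glutathione synthesis, from 15.7, 21 and 18.9 FPKM to 8.64, 8.39 and 13.2 FPKM (log2 -0.84, limma adjusted p = 0.00084). NQO1, a quinone reductase and common marker of NRF2 activity, named after its values were seen, averaged 4.34 FPKM across wild-type and 0.0609 FPKM across knockout libraries (limma adjusted p = 3.88e-09). The list also had 11 members lower and 2 higher without treatment, with a median of -0.31. The interaction was negative for 4 members and positive for 0 by the limma test (6 and 0 at an unadjusted p under 0.05). TXN was one of the 4, at -0.66 (limma adjusted p = 0.000311), while FTL was not, at -0.13 (limma adjusted p = 0.255). The ARE core TGACNNNGC was found in 2 of the 8 promoters of members that fell, in 2 of 5 of the others, and in 11% of all promoters. These shares were not tested against each other.

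The serpin and plasminogen activator list, which governs pericellular proteolysis, had 7 members lower and 1 higher of 14, with a median of -0.22. Beside SERPINB2, SERPINB7 fell from 102.8, 95.3 and 101.1 FPKM to 46.5, 47.2 and 45.8 FPKM (log2 -1.08, SE 0.043, limma adjusted p = 3.39e-10). Of 7 inhibitors in the list 5 fell, and of 7 proteases and receptors 2. CTSL, a lysosomal protease that can be secreted, fell from 77.4, 86.6 and 85.9 FPKM to 53.7, 59 and 57.6 FPKM (log2 -0.54, limma adjusted p = 0.000261), but the sum of its listed transcripts did not pass (limma adjusted p = 0.128).

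Several metalloproteinases were higher. Of 14 proteases tested 8 rose and 1 fell, and of the 4 inhibitors TIMP3 fell and the other 3 did not pass, so the list of 18 had 8 higher and 2 lower and a median of 0.22. ADAM19, a membrane-bound sheddase, rose from 61.8, 70.8 and 64.1 FPKM to 106.6, 109.0 and 107.2 FPKM (log2 0.71, SE 0.061, limma adjusted p = 1.45e-06). ADAM10, a sheddase of Notch and cadherins, rose from 17.3, 17.2 and 16.8 FPKM to 21.1, 21 and 24.2 FPKM (log2 0.35, limma adjusted p = 0.000331), and stood at 0.14 (limma adjusted p = 0.0908) with its bin's median removed. ADAMTS1, a secreted protease of proteoglycans, rose from 57.6, 58.5 and 57.4 FPKM to 82, 78.7 and 82.7 FPKM (log2 0.48, limma adjusted p = 1.87e-06). For ADAMTS1 the sums of listed transcripts did not pass (log2 0.78, limma adjusted p = 0.353), and with those sums, as with genes required to reach 5 FPKM, 5 members of the list rose. The filter at 5 FPKM can also take members out of the test.

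Of 17 mesenchymal markers 8 rose and 4 fell, with a median of 0.23, and VIM, the most abundant of those given here, was among those that fell (log2 -0.22, limma adjusted p = 0.00504). FN1, the matrix protein fibronectin (ENSG00000115414, chromosome 2, 215360440 to 215436172), measured 405.0, 393.8 and 427.8 FPKM in wild-type and 662.8, 584.0 and 642.4 FPKM in knockout libraries, 1.54-fold higher (log2 0.62, SE 0.056, limma adjusted p = 2.12e-06). SNAI2, a transcription factor of the epithelial to mesenchymal transition, measured 10.3, 10.7 and 10.2 FPKM against 18.8, 17.3 and 19.5 FPKM (log2 0.77, limma adjusted p = 1.61e-06), and LOXL2, which cross-links collagen, 95.5, 106.1 and 97.9 FPKM against 135.1, 138.9 and 134.8 FPKM (log2 0.45, limma adjusted p = 9.81e-06, and 0.20 with its bin's median removed). POSTN, a matrix protein of the same list, went down, from 9.46, 8.19 and 9.48 FPKM to 1.27, 1.77 and 1.74 FPKM (log2 -1.96, SE 0.169, limma adjusted p = 1.4e-06). Of 8 epithelial junction genes that passed the filter, out of 20 in the list, 3 rose and 2 fell. JUP, plakoglobin, rose from 7.78, 9.07 and 9.73 FPKM to 12.8, 11.5 and 12.9 FPKM (log2 0.45, limma adjusted p = 0.00055), and CLDN1, a tight junction claudin, from 24.4, 24.4 and 23.7 FPKM to 31.4, 29.8 and 30.6 FPKM (log2 0.33, limma adjusted p = 0.000123). The median of those 8 was 0.04.

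Collagens and laminins had 9 of 24 members higher and 6 lower, with a median of 0.15. Besides LAMA4, COL12A1, a collagen that decorates fibrils, fell from 24.2, 27.6 and 23.9 FPKM to 7.05, 5.09 and 4.6 FPKM (log2 -2.01, SE 0.148, limma adjusted p = 2.61e-07), and COL3A1 from 4.79, 5.37 and 5.05 FPKM to 2.64, 2.87 and 2.42 FPKM (log2 -0.74, limma adjusted p = 3.29e-07). COL6A3 rose from 19.9, 15.7 and 13.6 FPKM to 29.2, 31 and 23.7 FPKM (log2 0.75, limma adjusted p = 0.0011). Integrins and focal adhesion genes had 5 higher and 2 lower of 19, with a median of 0.12, among them ITGB5, a vitronectin receptor subunit, which rose from 31.2, 28.7 and 27.7 FPKM to 37, 41.7 and 41 FPKM (log2 0.44, limma adjusted p = 0.00233), and ZYX, zyxin, from 31.1, 35.6 and 35.9 FPKM to 46.4, 46.5 and 44.8 FPKM (log2 0.42, limma adjusted p = 0.00039). The count of 5 higher went to 3 without knockout library 1 or wild-type library 1, to 2 in a fit of only the 6 libraries and to 8 with rescaling to nuclear genes.

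TGF-beta and BMP genes split evenly, with 8 higher and 8 lower of 33 and a median of 0.09. Of 7 ligands 3 rose, and of 11 targets 3 rose and 5 fell. The ligand subunit INHBA rose from 18.2, 18.1 and 16.2 FPKM to 25, 24.4 and 26.5 FPKM (log2 0.51, SE 0.067, limma adjusted p = 7.95e-05). THBS1, a matrix protein that activates latent TGF-beta, fell from 466.2, 462.9 and 460.0 FPKM to 299.8, 300.4 and 306.3 FPKM (log2 -0.61, SE 0.03, limma adjusted p = 3.65e-09). ID1, a BMP target, fell from 20.2, 24.6 and 24.4 FPKM to 16.8, 16 and 18.1 FPKM (log2 -0.42, limma adjusted p = 0.00156), whereas in untreated cells it was higher in the knockout (4.48 and 6.85 FPKM), with an interaction of -0.94 (limma adjusted p = 0.000183). Genes of the YAP/TEAD pathway had 4 higher and 6 lower of 22, a median of 0.00, against 11 higher and 3 lower without treatment. The 6 lower became 3 in a fit of only the 6 libraries and 3 with bin medians removed. WWTR1, which encodes the coactivator TAZ, rose from 19.2, 19.9 and 20 FPKM to 26.8, 26.9 and 27.3 FPKM (log2 0.44, limma adjusted p = 0.000108), and TEAD4, one of its DNA-binding partners, fell from 18.2, 17.2 and 16.9 FPKM to 12.8, 12.8 and 11.1 FPKM (log2 -0.48, limma adjusted p = 0.000139, and -0.19 with adjusted p = 0.08 once its bin's median was removed).

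Among immediate early and ERK feedback genes 6 of 30 rose and 6 fell, with a median of 0.06. DUSP6, a phosphatase that switches off ERK, fell from 43.7, 49.9 and 46 FPKM to 23.2, 24.8 and 24.5 FPKM (log2 -0.92, SE 0.066, limma adjusted p = 2.03e-07), and DUSP5 from 14.3, 14.3 and 13.9 FPKM to 10.3, 10.7 and 9.98 FPKM (log2 -0.43, limma adjusted p = 4.57e-06). JUND, an AP-1 subunit, rose from 12, 13.4 and 7.32 FPKM to 20, 21.5 and 20.5 FPKM (log2 0.90, SE 0.169, limma adjusted p = 0.0013), with wild-type library 3 apart from the other two. Receptor kinases and their ligands had 7 higher and 1 lower of 25, with a median of 0.06. FGF5, a fibroblast growth factor, rose from 32.9, 30.7 and 31.2 FPKM to 61.5, 58.6 and 61.3 FPKM (log2 0.92, SE 0.043, limma adjusted p = 2.27e-09). IGF1R rose from 5.18, 4.92 and 5.62 FPKM to 9.39, 9.06 and 9.39 FPKM (log2 0.72, limma adjusted p = 0.000154), and MET, the receptor of hepatocyte growth factor, from 33.3, 32.5 and 31 FPKM to 43.8, 40 and 39.4 FPKM (log2 0.34, limma adjusted p = 0.00106). In all 3 every knockout library lay above every wild-type library.

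PMAIP1, the pro-apoptotic NOXA, fell from 9.74, 9.54 and 9.04 FPKM to 5.76, 5.9 and 6.09 FPKM (log2 -0.59, limma adjusted p = 2.56e-05) and had an interaction of -1.14 (limma adjusted p = 7.61e-06), having been higher in untreated knockout cells. TIGAR, which lowers glycolytic flux, fell from 14.5, 14.1 and 13.4 FPKM to 10, 10.4 and 10 FPKM (log2 -0.43, limma adjusted p = 3.73e-06), and with the median of its bin on chromosome 12 removed it stood at -0.14 (limma adjusted p = 0.0351). XPC, a damage sensor of nucleotide excision repair on the short arm of chromosome 3, rose from 18.8, 17.3 and 17.3 FPKM to 26, 26.2 and 25.2 FPKM (log2 0.51, limma adjusted p = 1.74e-06) and stood at 0.05 (limma adjusted p = 0.543) with its bin's median removed.

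Chaperones of the endoplasmic reticulum (ER) and the unfolded protein response had 9 of 29 members higher and 0 lower by the limma test, with a median of 0.03 (10 and 0 at an unadjusted p under 0.05). Without treatment 3 were higher and 9 lower, with a median of -0.17, and the interaction was positive for 10 and negative for 0 by the same test (15 and 0 unadjusted). EDEM1, which sends misfolded glycoproteins to degradation, measured 22.2, 22.6 and 20.9 FPKM in wild-type and 30.8, 32 and 32.5 FPKM in knockout libraries (log2 0.52, SE 0.045, limma adjusted p = 1.53e-06). PDIA6, a disulfide isomerase, measured 212.0, 207.4 and 210.5 FPKM against 251.0, 258.0 and 254.9 FPKM (log2 0.28, limma adjusted p = 4.99e-05). MANF, a secreted ER stress protein, measured 95.3, 96 and 98.8 FPKM against 110.2, 135.2 and 124.3 FPKM (log2 0.34, limma adjusted p = 0.00575), and in untreated cells 91.5, 93.2 and 89.8 FPKM against 69.6, 76.1 and 70.2 FPKM, with an interaction of 0.68 (SE 0.111, limma adjusted p = 0.00211). With bin medians removed 3 members of the list rose under siPARP1. EDEM1 then stood at 0.05 (limma adjusted p = 0.569) and MANF at -0.01 (limma adjusted p = 0.992), and both lie on the short arm of chromosome 3.

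Cytosolic heat shock chaperones had 2 of 18 members higher and 5 lower, with a median of -0.05, against 0 higher and 9 lower without treatment (0 and 10 at an unadjusted p under 0.05). HSPA8, the constitutive HSP70, measured 1178.6, 746.8 and 775.2 FPKM in wild-type and 1185.5, 1168.1 and 987.4 FPKM in knockout libraries under siPARP1, and the groups overlapped (log2 0.33, SE 0.141, limma adjusted p = 0.105). Untreated libraries held 687.0, 618.4 and 822.8 FPKM in wild-type and 296.7, 318.1 and 313.9 FPKM in knockout cells, and the interaction was 1.52 (SE 0.2, limma adjusted p = 0.000378). HSPA4 fell under siPARP1 from 101.0, 101.2 and 98.5 FPKM to 79.1, 75 and 75.8 FPKM (log2 -0.38, limma adjusted p = 1.6e-06, and -0.18 with its bin's median removed). The count of 5 lower was unstable, at 3 without wild-type library 1 or 3 or knockout library 1 or 3, and at 2 without wild-type library 2 or knockout library 2. The ATF4 stress response had 6 higher and 5 lower of 42 (26.2%, beside 24.3% of all genes), a median of -0.01, and 3 higher without wild-type library 1. Its SLC7A11, the cystine importer and also an NRF2 target, fell from 21.4, 21.6 and 20.9 FPKM to 16.2, 15.9 and 16.2 FPKM (log2 -0.38, limma adjusted p = 3.3e-05), and SLC1A4, a carrier of neutral amino acids, rose from 3.2, 3.14 and 3.25 FPKM to 5.23, 5.28 and 5.73 FPKM (log2 0.61, limma adjusted p = 2.2e-05).

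Genes of hypoxia and glycolysis had a different balance of calls with and without siPARP1. Without treatment 17 of 36 were higher and 2 lower, with a median of 0.31. Under siPARP1 6 were higher and 9 lower, with a median of -0.02, and the interaction was negative for 12 and positive for 0 by the limma test (15 and 1 at an unadjusted p under 0.05). GAPDH, the glycolytic dehydrogenase often used as a reference gene, measured 2668.1, 2815.5 and 2799.7 FPKM in wild-type and 1716.2, 1733.2 and 1775.5 FPKM in knockout libraries (log2 -0.66, SE 0.04, limma adjusted p = 3.26e-08), with an interaction of -0.40 (limma adjusted p = 0.000729). SLC2A3, a glucose transporter, fell from 26.6, 27.4 and 25.5 FPKM to 17.6, 17.1 and 18.7 FPKM (log2 -0.55, limma adjusted p = 5.66e-05). Both genes lie in the first 10 Mb of chromosome 12, and with the median of that bin removed GAPDH stood at -0.37 (limma adjusted p = 2.14e-05) and SLC2A3 at -0.25 (limma adjusted p = 0.023). ANKRD37, a hypoxia target, rose from 8.26, 8.16 and 11 FPKM to 16.2, 17.6 and 13.9 FPKM (log2 0.74, limma adjusted p = 0.000461), less than in untreated cells, where it went from 4.92, 5.79 and 4.32 FPKM to 13.9, 15.8 and 16.3 FPKM (interaction -0.70, limma adjusted p = 0.0281). Of 20 glycolysis genes 2 rose and 7 fell, and of 16 other hypoxia targets 4 rose and 2 fell. A fit of only the 6 libraries called 3 members higher.

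Of 28 genes of cholesterol synthesis and its regulation 10 fell and 2 rose, with a median of -0.12, and the falls took in 8 of 20 enzymes. CYP51A1, a demethylase of lanosterol, fell from 46.7, 47.1 and 45.7 FPKM to 33.6, 35 and 29.7 FPKM (log2 -0.50, SE 0.049, limma adjusted p = 5.18e-06, and -0.32 with its bin's median removed), HMGCS1, which acts early in the pathway, from 19, 20.9 and 18.2 FPKM to 14.9, 12.8 and 14.9 FPKM (log2 -0.42, limma adjusted p = 0.000351), and INSIG1, the sterol-regulated retention protein, from 19, 20.5 and 21.4 FPKM to 10.4, 11.1 and 11.8 FPKM (log2 -0.82, limma adjusted p = 0.00111). Without treatment 3 were lower and 1 higher, and the interaction was negative for 3. Among 19 genes of fatty acid synthesis and desaturation 5 fell and 1 rose, a median of -0.11. SCD, the main desaturase, fell from 54.3, 53.8 and 52.5 FPKM to 45.4, 45.8 and 45.1 FPKM (log2 -0.23, SE 0.03, limma adjusted p = 6.21e-05), while it was higher in untreated knockout cells (256.7 and 291.3 FPKM, interaction -0.41, limma adjusted p = 3.66e-05). With genes required to reach 5 FPKM, a filter that can also take members out of the test, 3 of that list fell.

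Lysosomal genes and subunits of the proton pump had 9 of 29 members lower and 2 higher, with a median of -0.15. ATP6V1G1, a pump subunit encoded on the long arm of chromosome 9, fell from 93.2, 91.1 and 90.5 FPKM to 60.9, 61.6 and 62.3 FPKM (log2 -0.56, SE 0.046, limma adjusted p = 8.5e-07, and -0.34 with its bin's median removed). CD63, a membrane protein of late endosomes, fell from 330.3, 335.2 and 316.6 FPKM to 239.4, 243.2 and 228.3 FPKM (log2 -0.46, limma adjusted p = 0.000627). Of 20 genes of the WASH and retromer complexes and the ubiquitin enzymes linked to TRIM27, 4 fell and 0 rose by the limma test (6 and 1 at an unadjusted p under 0.05), with a median of -0.10. The share called was 20%, beside 24.3% of all genes. WASHC2C, of the WASH complex, measured 66.2, 64.8 and 66.6 FPKM against 58.5, 59.8 and 56.3 FPKM (log2 -0.18, limma adjusted p = 0.0152, and 0.0619 without knockout library 3), and its near-identical copy WASHC2A shares reads with it. That count was 0 in a fit of only the 6 libraries, 1 without knockout library 3, and 2 without knockout library 2 or wild-type library 1 or 2. Of 37 other members of the TRIM family tested, 4 rose and 5 fell (24.3%, the same share as over all genes), with a median of -0.04. TRIM23 fell from 14.7, 14.9 and 14.7 FPKM to 10.6, 10.9 and 10.5 FPKM (log2 -0.44, limma adjusted p = 5.79e-06, and -0.19 with its bin's median removed), and MID1 rose from 39.3, 36.5 and 36.9 FPKM to 49.9, 50.6 and 49.2 FPKM (log2 0.40, limma adjusted p = 5.09e-06).

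Transcripts of the mitochondrial genome had 2 of 13 members higher and 1 lower (23.1%, beside 24.3% of all genes), with a median of 0.09. Without treatment 0 were higher and 8 lower, as also at an unadjusted p under 0.05, and the interaction was positive for 6. MT-CO1, a subunit of cytochrome oxidase, measured 14774.7, 14697.0 and 15217.6 FPKM in wild-type and 16857.1, 17182.6 and 17606.3 FPKM in knockout libraries (log2 0.21, SE 0.056, limma adjusted p = 0.0144). With bin medians removed it stood at 0.12 (limma adjusted p = 0.192), but its bin is the mitochondrial genome itself, so this step removes a shift that these transcripts share. MT-CO1 also did not pass without wild-type library 2 (limma adjusted p = 0.0501) or in a fit of only the 6 libraries (0.122). Of 77 cytosolic ribosomal protein genes 14 fell and 7 rose (27.3%, beside 24.3% of all genes), with a median of -0.02. RPL35 fell from 598.9, 596.9 and 603.3 FPKM to 448.9, 437.4 and 435.8 FPKM (log2 -0.44, SE 0.048, limma adjusted p = 1.19e-05, and -0.16 with its bin's median removed). These genes have many processed copies that can share reads. A fit of only the 6 libraries called 4 lower and 4 higher, 9 were lower without wild-type library 2, and 4 were higher without wild-type library 1.

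**Figure D3:**
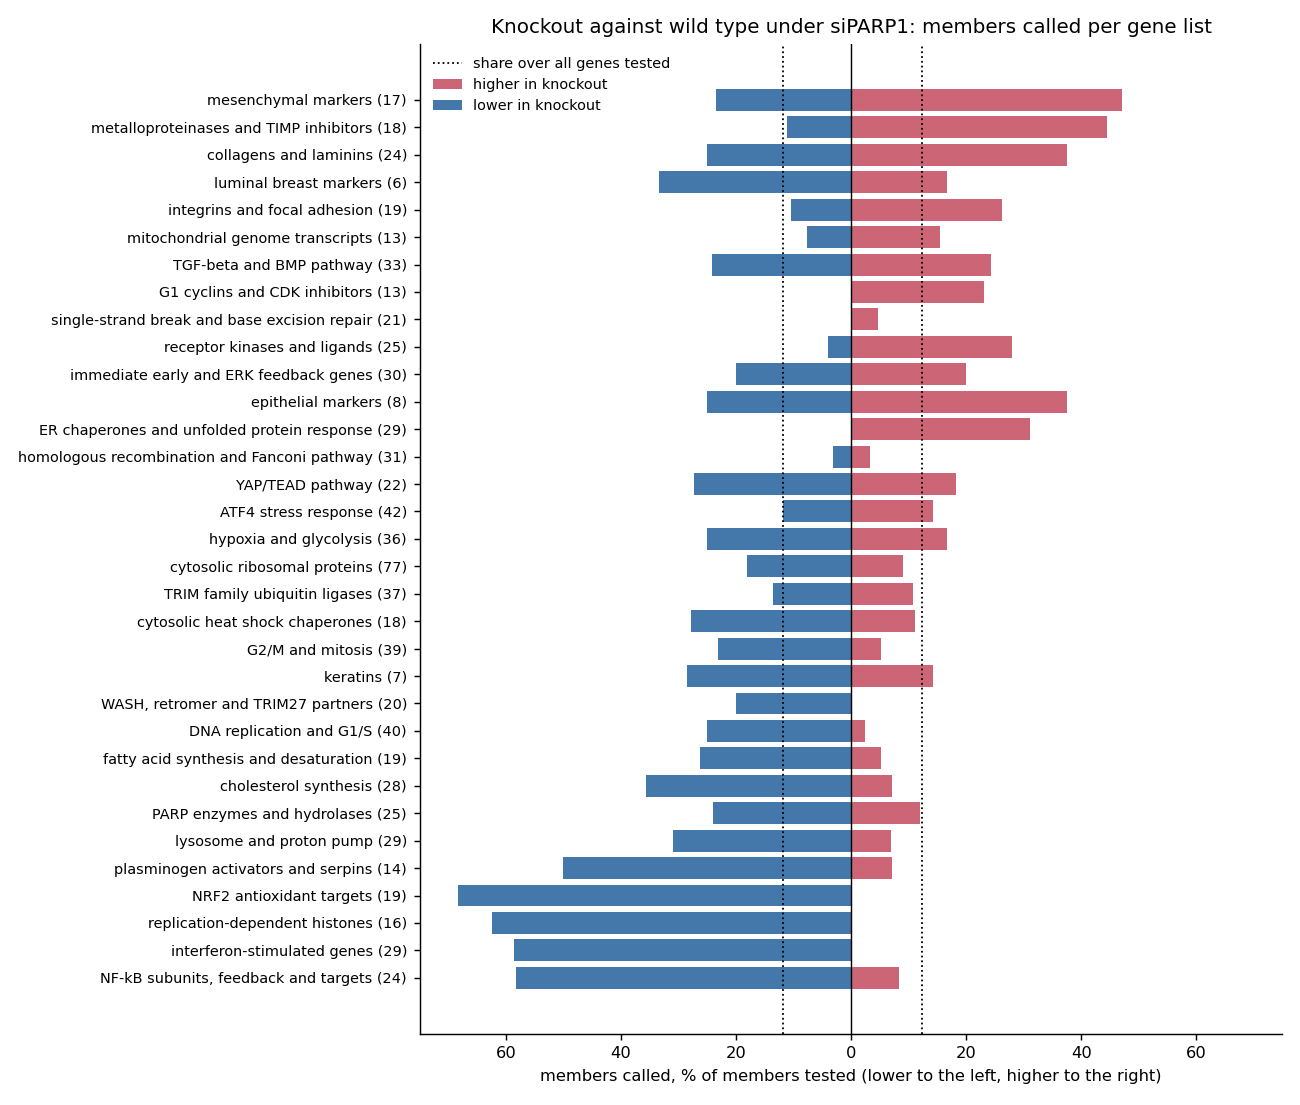
Bars give, for each gene list described here with at least 6 members tested, the share of members called lower (left, percent) and higher (right, percent) in knockout against wild-type cells under siPARP1, ordered by the list's median log2 change, with dotted lines at the 11.9% lower and 12.4% higher of all 14609 genes. The NF-kB, interferon, histone and NRF2 lists reach furthest left, and the mesenchymal and metalloproteinase lists furthest right.

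Many of the differences under siPARP1 were also present without it. The untreated comparison, which shares no library with the siPARP1 comparison, called 3052 genes, 1384 higher and 1668 lower. Both called 1598 genes in the same direction, 758 higher and 840 lower, which is 45.1% of the siPARP1 calls and 52.4% of the untreated calls. Opposite directions were called for 83 genes. In the olaparib comparison, with 1946 calls (13.3% of genes, 5.91% higher and 7.41% lower), 1227 were shared in the same direction, 34.6% of the siPARP1 calls and 63.1% of the olaparib calls, and 40 were opposite. All 3 comparisons called 925 genes the same way, 431 higher and 494 lower, among them UCHL1, SERPINB2, LNCAROD and TIMP3. With bin medians removed, 970 genes were shared between siPARP1 and no treatment. The number was 1059 with the siPARP1 comparison fitted on its 6 libraries and the untreated one on the 12 libraries of both conditions. A further 1864 genes were called under siPARP1 but not without treatment, and for 296 of them the interaction passed.

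**Figure D4:**
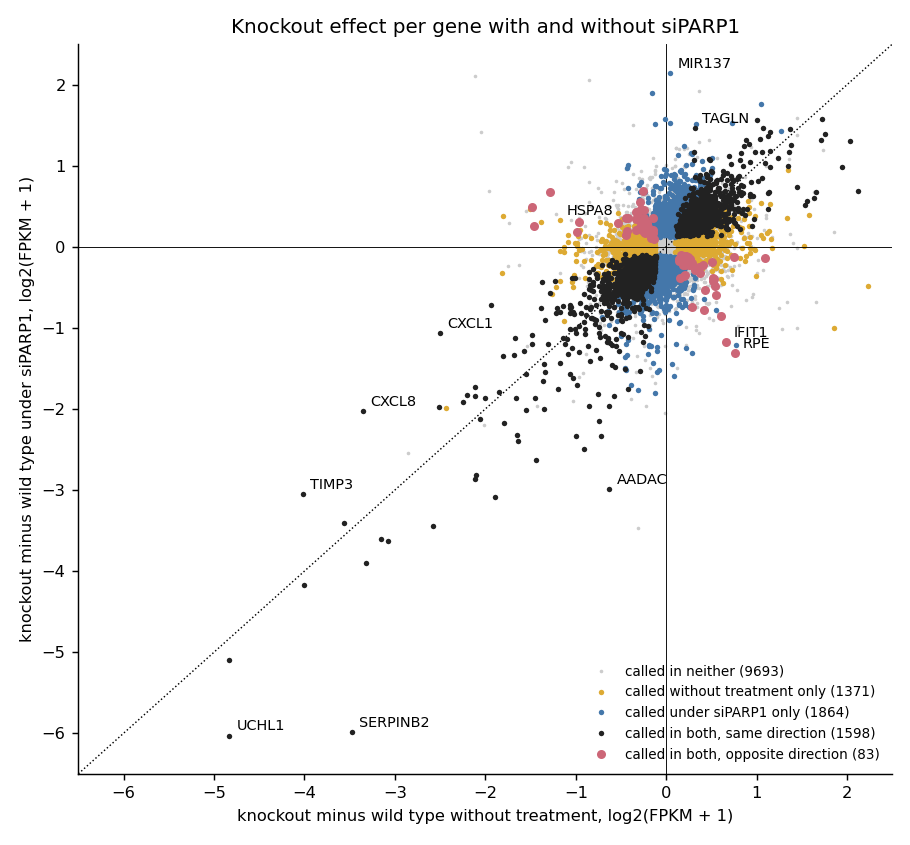
Each point is a gene, with the knockout minus wild-type difference in log2(FPKM + 1) without treatment on the horizontal axis and under siPARP1 on the vertical axis. The 1598 genes called in the same direction lie along the diagonal, the 83 called in opposite directions lie in the other 2 corners, and the 1864 called under siPARP1 and not without treatment spread along the vertical axis.

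The most negative interactions included genes whose wild-type mean was higher under siPARP1 than without treatment, a difference that was not tested. SERPINB2 stood at 11.7, 11.7 and 11.9 FPKM in untreated wild-type and 0.239, 0.117 and 0.0909 FPKM in untreated knockout libraries, and its interaction was -2.52 (SE 0.262, limma adjusted p = 4.24e-05), but -1.03 (limma adjusted p = 0.211) with a pseudocount of 0.1. The smaller constant brings the scale closer to a ratio. AADAC had an interaction of -2.35 (SE 0.128, limma adjusted p = 9.75e-08), and C15orf48, with 2.2, 2.68 and 2.64 FPKM in untreated wild-type and 0.547, 1.15 and 0.955 FPKM in untreated knockout libraries, one of -1.58 (SE 0.143, limma adjusted p = 1.26e-05). RPE, an enzyme of the pentose phosphate pathway, changed direction: 37, 31.1 and 20.1 FPKM in wild-type against 13.2, 9.4 and 10.5 FPKM in knockout libraries under siPARP1, and 27.2, 23.8 and 24.7 FPKM against 35.4, 50.3 and 46 FPKM without treatment. The RPE interaction was -2.07 (SE 0.284, limma adjusted p = 0.000553). Among positive interactions FOS, the AP-1 subunit, measured 9.56, 7.5 and 7.46 FPKM against 9.65, 8.69 and 9.09 FPKM under siPARP1, with overlap, and 3.82, 3.83 and 4.12 FPKM against 1.36, 1.08 and 1.55 FPKM without treatment (interaction 1.24, SE 0.118, limma adjusted p = 1.93e-05). TAGLN, with 1.45, 1.67 and 1.79 FPKM against 2.17, 2.2 and 2.49 FPKM without treatment, had an interaction of 1.14 (limma adjusted p = 0.000408). The interaction uses the libraries of both conditions, and in a fit of only those 12 libraries it passed for 504 genes.

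Differences also varied with chromosome position. In 249 bins of 10 Mb with at least 20 genes tested, 61 (24.5%) had a median log2 change of at least 0.15 in size, 32 higher and 29 lower. All 61 had a median of the same sign without treatment and under olaparib, in libraries that the siPARP1 medians do not use. The untreated comparison had 37 such bins, of which 36 had the same sign and 29 also passed 0.15 under siPARP1. Genes in those 37 bins, chosen without the siPARP1 libraries, numbered 2159 (14.8% of the genes) and held 846 of the siPARP1 calls (23.9%). In them 39.2% of genes were called, against 21.7% elsewhere.

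Segments whose limits were chosen after the values were seen show this. In the first 60 Mb of chromosome 3, which holds PPARG, FANCD2, XPC, EDEM1 and MANF, 214 of 338 genes rose and 1 fell, with a median of 0.38, a level 30% above wild type. The same segment had medians of 0.28 without treatment and 0.29 under olaparib. Chromosome 22 had 125 of 339 genes higher and 6 lower (median 0.22), chromosome 15 had 133 of 435 higher and 15 lower (0.19), and the first 20 Mb of chromosome 19 had 124 of 394 higher and 5 lower (0.20). Lower segments were the first 30 Mb of chromosome 12, with 73 of 151 genes lower and 2 higher (median -0.29), chromosome 9 beyond 110 Mb, with 101 of 229 lower and 4 higher (-0.24), the first 30 Mb of chromosome 20, with 45 of 117 lower and 2 higher (-0.23), chromosome 5 beyond 50 Mb, with 178 of 518 lower and 17 higher (-0.19), and the first 60 Mb of chromosome 7, with 70 of 219 lower and 5 higher (-0.17). BCAT1 and CLEC2B, listed at 0 in the knockout, lie in the segment of chromosome 12, as do GAPDH, SLC2A3 and TIGAR, PCNA lies in that of chromosome 20, and TXN and ATP6V1G1 lie in that of chromosome 9. Whether these segments differ in DNA copy number between the genotypes was not tested. Calls also varied with GC content, the share of G and C bases, when protein-coding genes were split by it into 4 equal groups. In the group of highest GC content 19.5% were higher and 7.84% lower, and in the lowest 9.99% and 13.8%. Over all genes tested the shares were 12.4% and 11.9%. How far GC content and chromosome position overlap here was not tested.

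**Figure D5:**
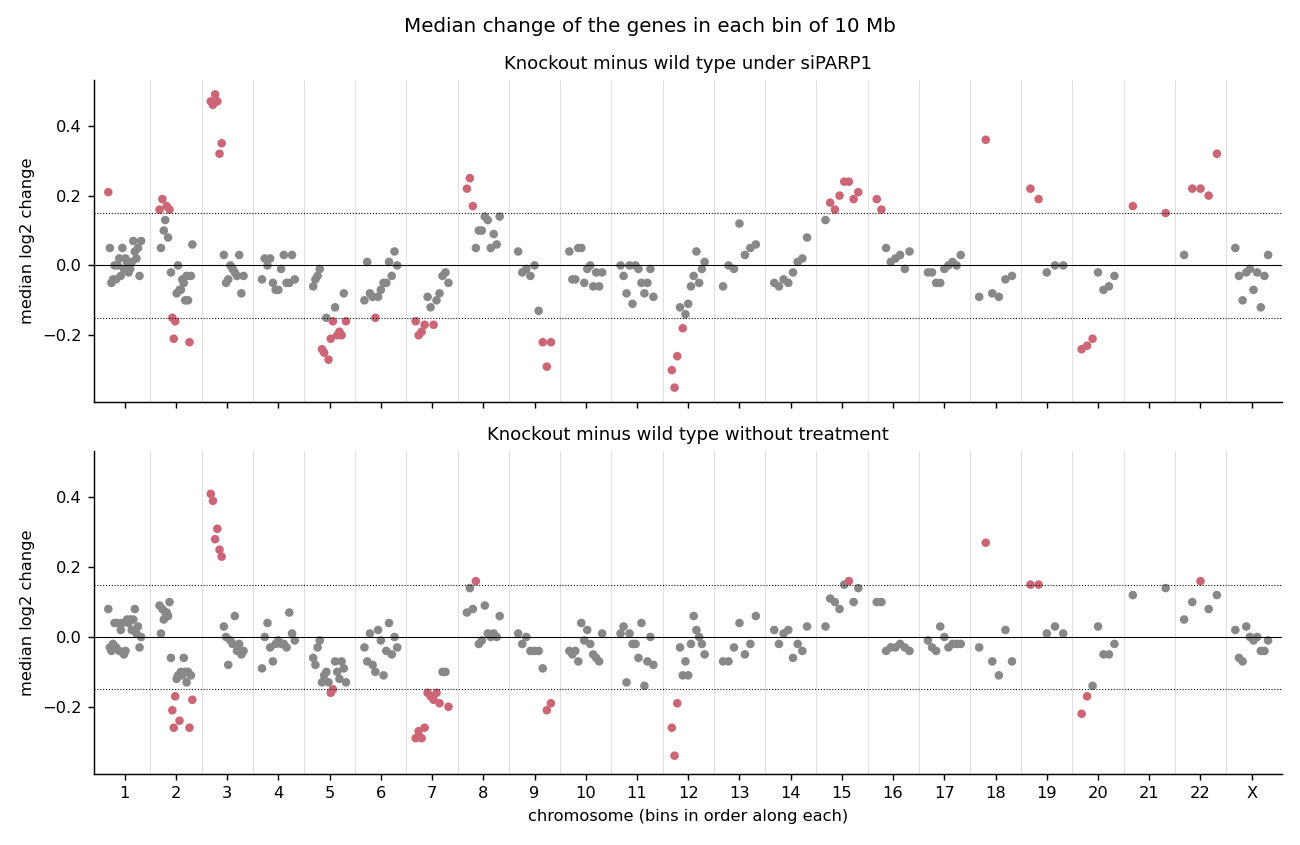
Points are 10 Mb bins in chromosome order, with the median knockout minus wild-type difference in log2(FPKM + 1) on the vertical axis, under siPARP1 in the upper panel and without treatment in the lower panel, and red where the median is at least 0.15 in size. Red bins number 61 and 37, and the raised run at the start of chromosome 3 is present in both panels.

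Markers of other cell types were low or shared with the line itself. Summed over 14 luminal markers, of which 6 passed the filter, wild-type libraries held 1151.4 to 1245.2 FPKM and knockout libraries 1018.3 to 1040.7 FPKM. Most of that sum came from keratins, and SPDEF, TFF1 and TFF3 were at 0 in all 6 libraries. Of 7 keratins tested 1 rose and 2, KRT8 and KRT18, fell, and neither of the 2 passed without knockout library 3. KRT19 rose from 141.4, 152.4 and 147.5 FPKM to 170.4, 173.9 and 176.3 FPKM (log2 0.24, limma adjusted p = 0.000444). The 12 leukocyte markers summed to 23.1 to 33.3 FPKM and 12.4 to 23.6 FPKM, with CD3D, CD3E and MS4A1 at 0 throughout and PTPRC at means of 0.0159 and 0.00734 FPKM. The 2 members that passed the filter were HLA-DRA, a class II antigen presentation chain, with 3.35, 2.4 and 8.63 FPKM against 13.9, 2.13 and 2.59 FPKM and overlap between the genotypes, and CD68. CD68, a lysosomal protein that many cells make, fell from 19.5, 21 and 24.1 FPKM to 9.55, 10.3 and 9.63 FPKM (log2 -1.05, limma adjusted p = 1.39e-06). The 12 neural markers summed to 36.3 to 57.2 FPKM and 19.9 to 44.1 FPKM, with NEFL, NEFM and ELAVL3 at 0 throughout, and 2 of the 3 tested, TUBB3 and SNAP25, were lower, of which 1 passed when any library but wild-type library 2 was left out. The part of these sums in the results was not tested. Of 9 endothelial markers 0 passed the filter, and their sums were 0.178 to 0.465 FPKM and 0.383 to 0.655 FPKM.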

How the data were processed

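RNA was measured by sequencing poly(A) RNA enriched with oligo(dT) beads, per the labels' protocols. The authors deposited gene and transcript tables in FPKM. Tools named in the submitters' processing notes are DESeq2 1.38.3, StringTie 2.2.1, featureCounts 2.0.3, HISAT2 2.2.1 and fastp 0.23.2, with the build GRCh38. The tool behind the FPKM values and its strand setting are not given in the sources used here. Because FPKM divides by the library total, a gene's value falls when abundant genes rise.

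Groups were taken from the sample labels. From the deposited values log2(FPKM + 1) was computed and fitted with limma 3.58.1 (R 4.3.3, trended variance, 12 residual and 2.03 prior degrees of freedom) on the 14609 genes, with 1 mean for each of the 6 groups of 3 libraries, so that all 18 libraries share 1 estimate of the spread. P-values were adjusted by the Benjamini-Hochberg method over all 14609 genes. A fold change on this scale understates the change of low genes, and folds given as such are ratios of mean FPKM. Interactions are the knockout effect under siPARP1 minus that without treatment. On simulated data for this comparison the test recovered 66% of changes of log2 0.5 and 93% of changes of log2 1, with 9 false calls among 168 over 14609 genes. Changes were planted in 100 genes of each size, all above about 5 FPKM, with normally distributed noise. Recovery for lower genes, or where many genes change as in these data, was not simulated.

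Genes named were the 14 strongest rises and falls without overlap whose higher group averaged 5 FPKM or more, the 8 strongest interactions each way, and up to 6 strongest called members of each of 38 lists. The members and lists were chosen with earlier results of these data known, and other named genes were chosen after their values were seen. Some genes that this rule names, and 1 list, are not reported here. Positions are from GENCODE 29 and promoters from RefSeq. Tables and figures were made with Python 3.11.15, pandas 2.3.3, numpy 2.4.6 and matplotlib 3.10.9. Alternatives tried were the pseudocount, the filter, 3 rescalings, a fit of only the libraries compared, a replicate term, transcript sums, removal of bin medians, and leaving out each library.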

Additional observations from a re-analysis of the deposited data

Results flagged for a closer look

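The knockout effect under siPARP1 differed from that without treatment, by the interaction term of the limma fit, for the 15 named genes that follow. The value given is the effect under siPARP1 minus the effect without treatment in log2(FPKM + 1). It was positive for MIR137 at 2.10, PDP1 at 1.89, SLC33A1 at 1.65, HSPA8 at 1.52, CXCL1 at 1.43, CXCL8 at 1.33, FOS at 1.24 and CXCL2 at 1.22. It was negative for SERPINB2 at -2.52, AADAC at -2.35, RPE at -2.07, SNHG26 at -1.98, IFIT1 at -1.84, AADACP1 at -1.62 and C15orf48 at -1.58.

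MIR137 measured 0.0683, 0.11 and 0.073 FPKM in untreated wild-type and 0.108, 0.124 and 0.108 FPKM in untreated knockout libraries. Under olaparib, which the interaction does not use, the wild-type mean was 8.31 FPKM and the knockout mean 9.48 FPKM. PDP1, a phosphatase that activates pyruvate dehydrogenase, measured 31.3, 27.7 and 43.5 FPKM in wild-type and 82.3, 45 and 81.7 FPKM in knockout siPARP1 libraries, and 17.9, 35.3 and 38.4 FPKM against 15.6, 12.9 and 16.6 FPKM without treatment. SLC33A1, a carrier of acetyl-CoA, measured 8.87, 8.34 and 7.11 FPKM against 8.72, 19.2 and 18.9 FPKM under siPARP1, and 7.49, 7.16 and 12 FPKM against 4.24, 5.52 and 3.49 FPKM without treatment. SNHG26, a host gene of small nucleolar RNAs, measured 5.16, 8.68 and 9.11 FPKM against 2.46, 3.42 and 2.16 FPKM under siPARP1, and 12.6, 3.78 and 3.79 FPKM against 10.2, 11.9 and 9.73 FPKM without treatment. Libraries of the same group differed by more than 1.5 times in each of these 3 genes.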

How the results depend on the processing

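The 3545 calls under siPARP1 became 2210 (1122 higher and 1088 lower) in a fit of only the libraries compared and 2359 (1175 higher) with the median of each 10 Mb bin removed. In the same 2 settings the genes shared with the untreated comparison became 1059 and 970. The interaction calls became 504 in the first, and the olaparib calls 1206 in the second. Leaving out 1 of the 6 siPARP1 libraries gave 2939 to 3047 calls. Of 198 named genes called under siPARP1, 121 were called under every alternative, and the effect turned sign for KRT18 (0.01), TGFBR2 (-0.03), PARP3 (-0.03), PARP6 (-0.01) and MANF (-0.01) with bin medians removed and for TGFBR2 (-0.22) with transcript sums. Where a value changed, the cause was not tested.

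Among the interactions, MIR137 did not pass with a pseudocount of 0.1 (3.43, limma adjusted p = 0.0601) or in a fit of only the libraries compared (0.0735), and AADACP1 did not with a pseudocount of 0.1 (-0.55, limma adjusted p = 0.626). The interaction of PDP1 was lost when any of 10 of the 12 libraries was left out, that of SLC33A1 for 9 and that of SNHG26 for 9. The PDP1 call held only without knockout siPARP1 library 2 or untreated wild-type library 1. The SLC33A1 call held only without knockout siPARP1 library 1, untreated knockout library 2 or untreated wild-type library 2. The SNHG26 call held only without knockout siPARP1 library 2, wild-type siPARP1 library 1 or untreated wild-type library 1. The other 12 kept their calls in all 12 such fits.

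The labels number the libraries, but same-numbered wild-type and knockout libraries under siPARP1 did not deviate together (r = -0.066, -0.01 and 0.015 across genes), so the numbers were not taken as pairs. With a replicate block there were 3462 calls. Depth is unknown in absolute terms, and values under 1 FPKM rest on few fragments.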
